A study of Mus musculus with 2 samples.

Results

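The IGF binding proteins Igfbp2, Igfbp3, Igfbp4, Igfbp5, Igfbp6 and Igfbp7, the receptors Igf1r and Igf2r, and the insulin receptor substrates Irs1 and Irs2 form the reception side of insulin-like growth factor (IGF) signalling. These 10 genes, of 18193 named singly on the arrays, were represented by 24 of the 45037 non-control probe sets, taken where the platform annotation gave a probe set exactly 1 of their symbols. The family was chosen by the ratios of transgenic over wild-type signal that some of its genes, Igfbp5 and Irs2 among them, were already known to have on these arrays, so all the values below are descriptions and none supports the choice.

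The arrays held RNA of mouse hair follicles taken at postnatal day 10, and 2 groups were compared. The first group was mice that carried the transgene dnFGFR2-IIIb, made from the epithelial splice form (IIIb) of fibroblast growth factor receptor 2, and the second was wild-type mice. Each group was 1 array, hybridised with total RNA of about 300 follicles pooled from 3 mice of different litters. The sources used here do not give the promoter that drives the transgene, nor the strain or sex of the mice.

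With 1 array per group there was no replicate error, no interval and no test, and the pools hide the spread between mice. The pooled follicles also do not show whether a lower signal came from fewer cells of a type or from less RNA per cell. Precision is limited by this number of arrays.

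IGF1 and IGF2 are secreted growth factors that act through IGF1R, a receptor tyrosine kinase. Most IGF in tissues is held by IGF binding proteins, which keep it from the receptor or carry it to the cell surface, while IGF2R takes up IGF2 and leads it to lysosomes. Activated IGF1R phosphorylates the adaptors IRS1 and IRS2, which recruit phosphatidylinositol 3-kinase and so switch on Akt. In the hair follicle IGF1 from the dermal papilla promotes growth of the hair matrix, and IGFBP5 has been linked to the shape of the hair shaft in mice. The comparison asks which of these genes differed when signalling by the IIIb form of the receptor was disturbed.

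Signals are linear intensities in arbitrary units, and one above a floor of 10.5, the 40th percentile of all signals, is called detected. Of the 24 probe sets, 20 were detected on both arrays, 2 on 1 array alone and 2 on neither. A probe set detected on both was called higher or lower in transgenic follicles where the signals differed by 2-fold or more. Among the 20, 2 were called higher and 0 were called lower. Over all 23511 probe sets detected on both arrays, 2.45% were called higher and 1.62% lower. The 2 higher ones belonged to Igfbp5 and Igf2r, and in both genes the other probe set differed by under 2-fold. The median log2 ratio of transgenic over wild type was 0.03 over the 20 probe sets and 0.03 over all probe sets. Ratios above 1 were seen in 11 of the 20 and ratios under 1 in 9.

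**Figure D1:**
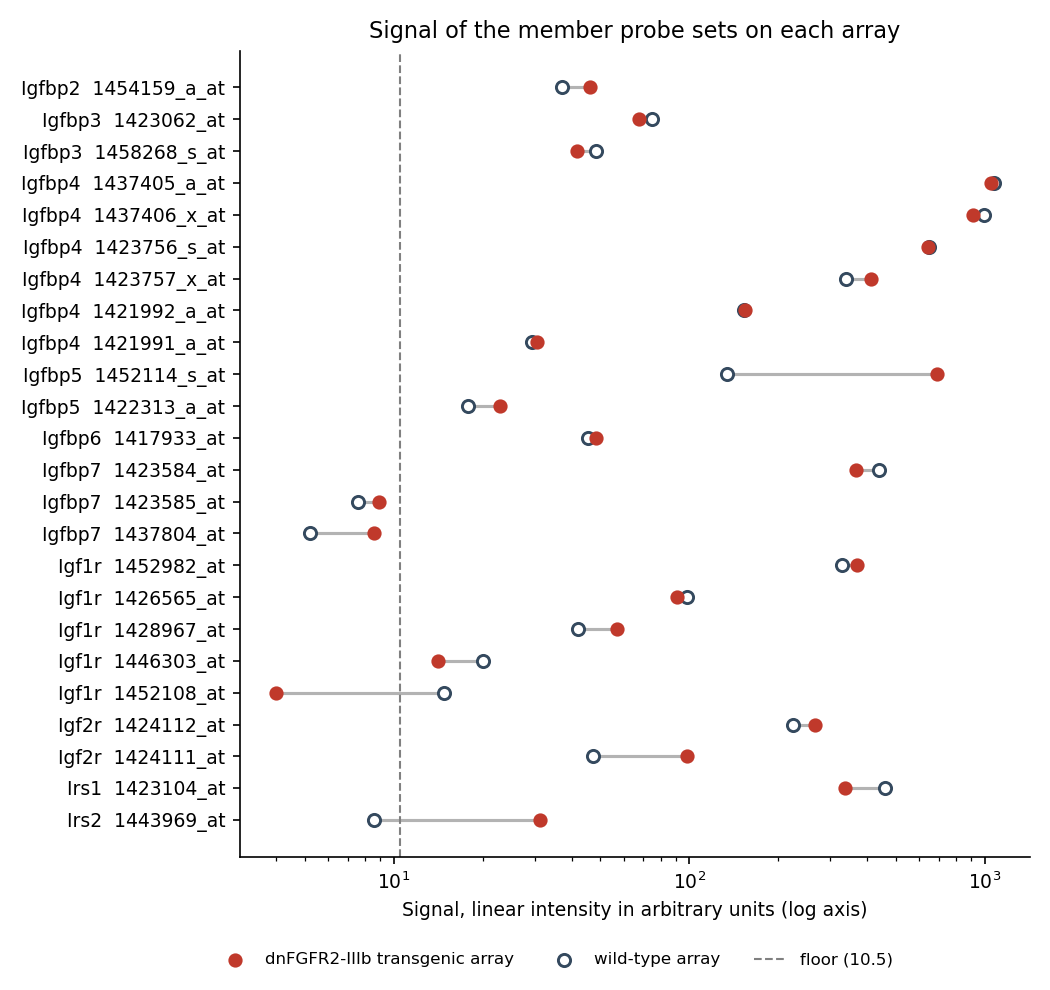
Signal of each of the 24 probe sets, in arbitrary linear units on a log axis, on the transgenic array (filled red) and the wild-type array (open), with the floor of 10.5 dashed. The widest gaps belong to Igfbp5 1452114_s_at (688 and 135), Igf1r 1452108_at (4.0 and 14.8) and Irs2 1443969_at (31.3 and 8.60), and most other pairs nearly coincide; signals of different probe sets cannot be compared with each other.

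As a technical yardstick, log2 ratios were compared between different probe sets of the same gene over all genes with several detected probe sets. Their SD was 0.51 among dim probe sets (mean signal up to 48.7), 0.37 among those of middling brightness and 0.29 among bright ones (from 182 upwards). This spread leaves out differences between mice. In 16 of the 20 member probe sets the log2 ratio was smaller than the SD of its brightness class, as it was in 69.3% of all probe sets. The 4 others were Igfbp5 1452114_s_at, Igf2r 1424111_at, Igf1r 1428967_at and Irs1 1423104_at.

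Igfbp5 encodes a binding protein that is kept in the extracellular matrix. Its probe set 1452114_s_at read 688 on the transgenic array, against 135 on the wild-type array. That is a 5.11-fold higher signal, a log2 ratio of 2.35, and 6 of the 23511 probe sets, itself included, had a ratio as high or higher. The ending _s_at marks a probe set that the array's design allows to match transcripts of several genes, though the annotation names Igfbp5 alone. The other probe set, 1422313_a_at, read 22.9 on the transgenic array, against 17.9 on the wild-type array, with a log2 ratio of 0.36. Both probe sets thus had ratios above 1, but they lay 2.0 apart on the log2 scale, against an SD of 0.51 for dim probe sets.

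The 250 bases before the transcription start of Igfbp5 are shown because this gene had the largest ratio of the family, and those of Igf2r and Irs2 because each also had a probe set with a ratio or a bound over 2. The sequences are RefSeq's for build GRCm38.p6, all on the minus strand. They lie at chr1:72874866-72875115 for Igfbp5, chr17:12769707-12769956 for Igf2r and chr8:11008930-11009179 for Irs2. Capitals mark GC boxes (GGGCGG), E-boxes (CACGTG) and, in Igfbp5, TATTTAA, a variant of the TATA box that was added to the search after the sequence had been read.
Igfbp5: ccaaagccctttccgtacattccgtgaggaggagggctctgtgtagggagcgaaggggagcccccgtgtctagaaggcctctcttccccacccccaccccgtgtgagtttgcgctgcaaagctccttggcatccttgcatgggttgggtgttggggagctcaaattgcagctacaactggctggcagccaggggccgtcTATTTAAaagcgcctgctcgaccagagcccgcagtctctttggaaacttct
Igf2r: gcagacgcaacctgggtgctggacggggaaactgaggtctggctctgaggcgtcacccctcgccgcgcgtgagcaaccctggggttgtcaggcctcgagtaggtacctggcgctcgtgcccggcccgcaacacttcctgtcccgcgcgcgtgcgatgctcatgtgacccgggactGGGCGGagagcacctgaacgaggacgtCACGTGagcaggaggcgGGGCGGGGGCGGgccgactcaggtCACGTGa
Irs2: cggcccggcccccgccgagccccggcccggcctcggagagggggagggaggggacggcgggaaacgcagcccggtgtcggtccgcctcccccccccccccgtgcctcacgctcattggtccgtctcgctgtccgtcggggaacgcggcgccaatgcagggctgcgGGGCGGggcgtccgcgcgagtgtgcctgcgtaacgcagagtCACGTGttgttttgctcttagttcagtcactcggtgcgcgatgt

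The variant TATTTAA of Igfbp5 begins 51 bases before the start and was found on either strand in 4.18% of 32851 promoters of the same length. The GC box, the letters read by SP1-like factors, was present 3 times before Igf2r and 1 time before Irs2, and it was in 32.7% of all promoters. The E-box stood 2 times before Igf2r and 1 time before Irs2, against a share of 6.02% of all promoters with at least 1. Neither motif was particular to these genes: of the 11 promoters of the family, 6 held a GC box and 4 an E-box. Irs1 and 1 promoter of Igfbp2 held both motifs, and no probe set of these genes differed by 2-fold. None of the promoters of the 10 genes, 11 in number since Igfbp2 has a pair, held the letters GTAAACA that FOXO factors bind, which 3.17% of all promoters hold. Further searches in these 11 promoters found TATAAA in 2 (12.4% of all promoters), TGANTCA, the AP-1 letters, in 1 (6.75%) and CCGGAA, an ETS core, in 2 (12.0%). The 250 bases before Igfbp5 were 58.8% G or C with 10 CpG dinucleotides, those of Igf2r 69.2% with 27 and those of Irs2 72.8% with 34, where the median of all promoters was 52.4% and 6. These matches describe letters, and binding was not measured.

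Igfbp2 lies next to Igfbp5 on chromosome 1, on the opposite strand, so that the genes run towards each other. It encodes a binding protein of body fluids that can also dock to integrins. Its single probe set read 46.1 on the transgenic array, against 37.0 on the wild-type array, a log2 ratio of 0.32. That ratio was smaller than the SD of 0.51 for dim probe sets, and 22.6% of all probe sets detected on both arrays had one as high or higher. Both neighbours had ratios above 1, of which only that of Igfbp5 passed 2-fold.

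Igfbp3 is the main carrier of IGF in serum, where it forms a complex with the acid-labile subunit. Its probe set 1423062_at read 67.5 on the transgenic array, against 74.7 on the wild-type array, and 1458268_s_at read 41.8, against 48.5. Both log2 ratios, -0.15 and -0.21, were under 0 and smaller than the spread between probe sets. Igfbp1, its neighbour on chromosome 11 and a binding protein made mostly in liver, lay under the floor on both arrays.

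Igfbp4, which restrains IGF action until the protease PAPP-A cleaves it, was the most widely sampled gene of the family, with 6 probe sets. The brightest, 1437405_a_at, read 1047 on the transgenic array, against 1071 on the wild-type array. The next, 1437406_x_at, read 908 on the transgenic array, against 994 on the wild-type array. Across the 6 probe sets the log2 ratios lay between -0.13 and 0.29, with a median of 0.00 and an SD of 0.14. Of them 3 were above 0 and 3 under it, although the endings of all 6 mark probe sets that can match several transcripts.

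Igfbp6, which prefers IGF2 over IGF1, read 48.2 on the transgenic array, against 45.5 on the wild-type array. Its log2 ratio was 0.08. Igfbp7, a relative that binds IGFs weakly and is deposited around blood vessels, read 367 on the transgenic array, against 438 on the wild-type array, at its bright probe set 1423584_at. That log2 ratio was -0.25, inside the SD of 0.29 for bright probe sets. The other Igfbp7 probe sets lay under the floor on both arrays, at 8.90 and 8.60 on the transgenic array and at 7.60 and 5.20 on the wild-type array, and carry no ratio. Over the 13 binding protein probe sets detected on both arrays the median log2 ratio was 0.01.

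**Figure D2:**
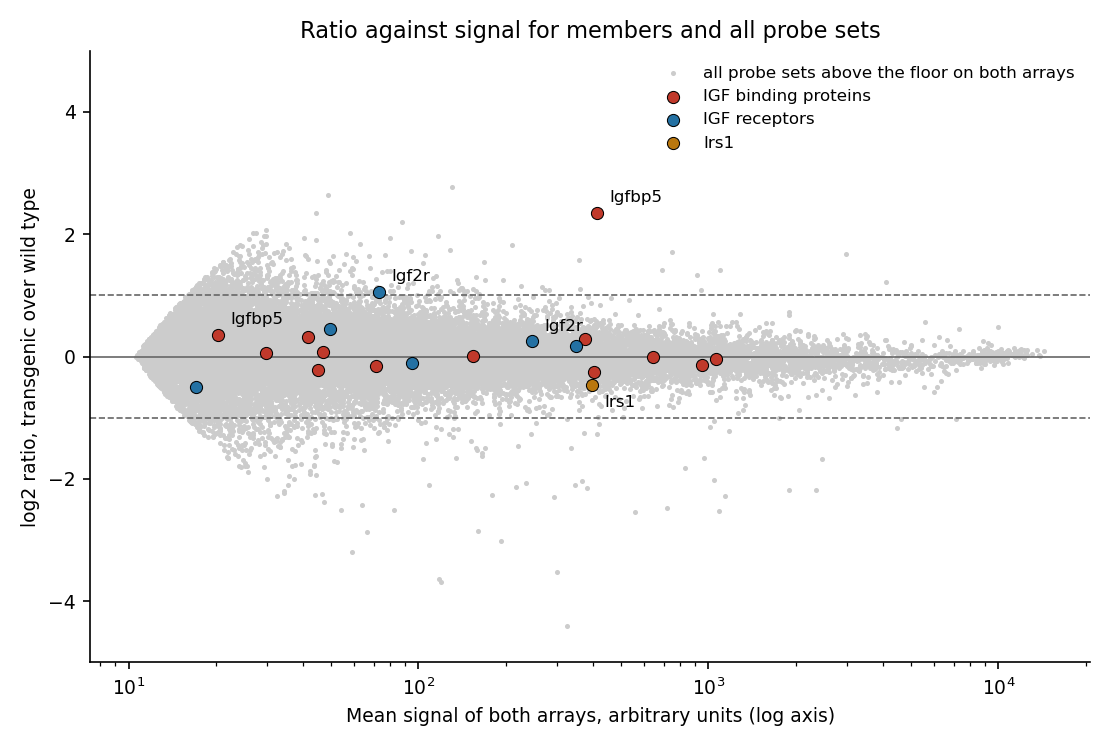
Log2 ratio of transgenic over wild-type signal against the mean signal of both arrays (log axis) for all 23511 probe sets detected on both arrays (grey) and for the 20 members among them (coloured by role); dashed lines mark 2-fold and 2 probe sets lie beyond the axis. Igfbp5 1452114_s_at stands at 2.35, Igf2r 1424111_at at 1.06, and the other members lie between -0.50 and 0.44.

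Igf1r, the signalling receptor, had 5 probe sets. The brightest, 1452982_at, read 370 on the transgenic array, against 328 on the wild-type array, a log2 ratio of 0.17. The next, 1426565_at, read 91.1 on the transgenic array, against 98.4 on the wild-type array, a log2 ratio of -0.11. The remaining probe sets were dimmer and did not point one way. Probe set 1428967_at read 57.0 on the transgenic array, against 41.9 on the wild-type array (log2 ratio 0.44), and 1446303_at read 14.1, against 20 (log2 ratio -0.50). The last, 1452108_at, was not detected on the transgenic array, at 4.0, and read 14.8 on the wild-type array, so that it was at least 1.41-fold lower. Of 27 controls that match no mouse transcript, the brightest read 15.8 on the transgenic array, against 8.5 on the wild-type array, so the transgenic signals of both dim Igf1r probe sets were under the brightest such control and their wild-type signals above it. The SD over the 4 probe sets detected on both arrays was 0.41, against a median of 0.03.

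Igf2r, the scavenger receptor of IGF2, had 2 probe sets that disagreed in size. The brighter, 1424112_at, read 267 on the transgenic array, against 224 on the wild-type array, a 1.19-fold higher signal and a log2 ratio of 0.25. The dimmer, 1424111_at, read 98.4 on the transgenic array, against 47.2 on the wild-type array, which is 2.08-fold higher and a log2 ratio of 1.06. A ratio as high or higher was seen in 471 of the 23511 probe sets. With equal medians of both arrays the log2 ratio of 1424111_at was 0.92, and with a floor of 50 it was 0.98, so that its place above 2-fold depended on the scaling and the floor.

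Irs1, the adaptor that couples IGF1R and the insulin receptor to phosphatidylinositol 3-kinase, read 335 on the transgenic array, against 460 on the wild-type array. This 1.37-fold lower signal gave a log2 ratio of -0.46, the lowest among the bright member probe sets, where the SD between probe sets was 0.29. A ratio as low or lower was seen in 10.5% of all probe sets detected on both arrays. Irs2, a closely related adaptor whose gene is induced by FOXO factors in mouse liver, read 31.3 on the transgenic array and was not detected on the wild-type array, at 8.60. It was at least 2.98-fold higher on the transgenic array, a bound that corresponds to a log2 ratio of 1.58. Among the 4102 probe sets detected only in transgenic follicles, 14.2% reached a bound of at least 2-fold. Irs2 entered that group only through its signal on the transgenic array. A floor at the 60th percentile reduced the bound to a log2 ratio of 0.18. Each adaptor was read on 1 probe set, Irs1 with a ratio under 1 and within 2-fold, and Irs2 only as a bound above 1.

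**Figure D3:**
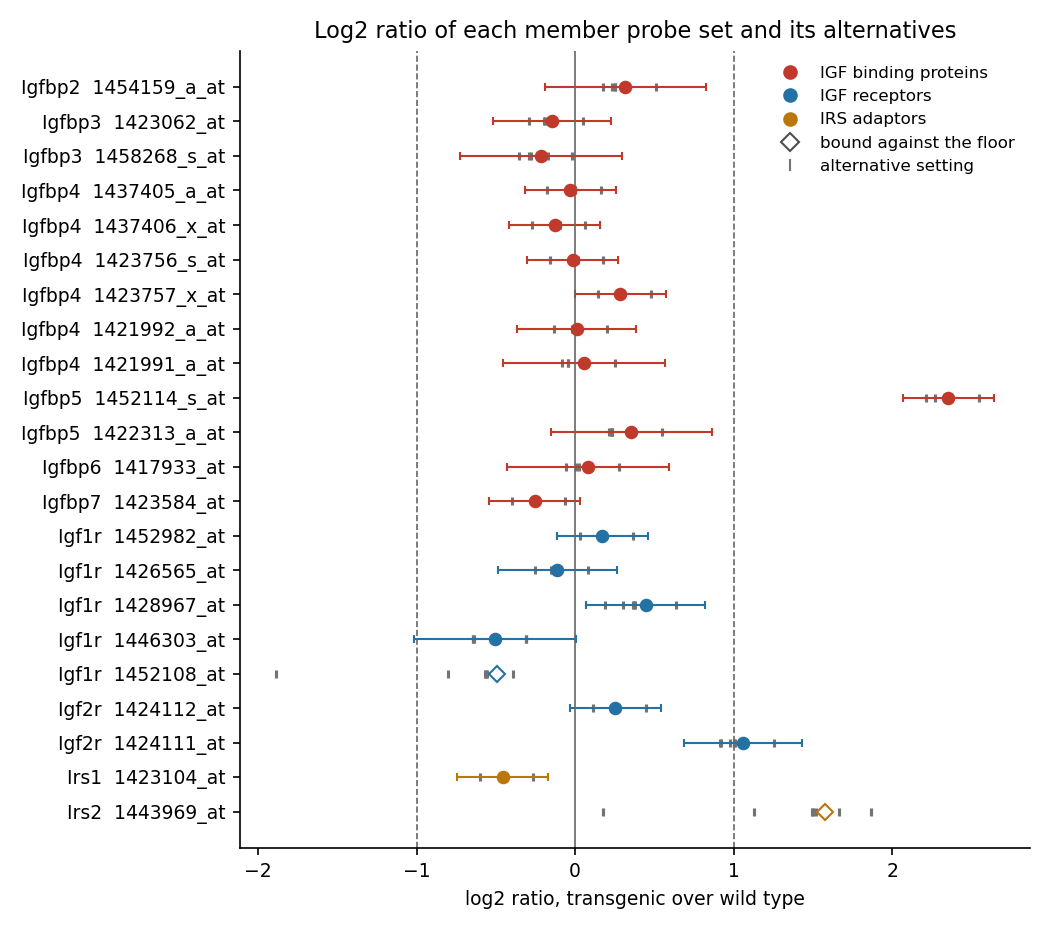
Log2 ratio of transgenic over wild-type signal of the 22 probe sets detected on at least 1 array (coloured by role), with the SD between probe sets of like brightness as bars, bounds against the floor as open diamonds without bars, and grey ticks for alternative scalings and floors; dashed lines mark 2-fold. Igfbp5 1452114_s_at kept log2 ratios from 2.21 to 2.55 under the alternatives, whereas Irs2 lay between 0.18 and 1.86.

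The rest of the pathway was described with 8 lists of 75 genes, each gene by its brightest probe set. Of 70 measured genes 59 were detected on both arrays, and among these 0 were called higher and 1 was called lower. Over all 11565 genes detected on both arrays, 1.6% were called higher and 1.58% lower. The median log2 ratio was 0.05 over the 59 genes and 0.00 over all 11565. The lower gene was Sh2b2, an adaptor of the insulin receptor, which read 18.7 on the transgenic array, against 38.0 on the wild-type array. Its other probe set had a log2 ratio of 0.79, in the opposite direction.

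Among the ligands, Igf2 read 70.5 on the transgenic array, against 59.6 on the wild-type array (log2 ratio 0.24). Igf1 read 19.6 on the transgenic array, against 16.8 on the wild-type array (log2 ratio 0.22), and its other probe set gave -0.17. Ins2, an insulin gene, read 13.6 on the transgenic array, against 17.2 on the wild-type array (log2 ratio -0.34). Its transgenic signal was under the 15.8 of the brightest control that matches no mouse transcript. The insulin receptor gene Insr read 32.6 on the transgenic array, against 42.2 on the wild-type array (log2 ratio -0.37). None of these passed 2-fold.

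Proteases that cleave binding proteins, and the inhibitors of these proteases, had 6 genes detected on both arrays, of which 4 had a ratio above 1. Stc1, an inhibitor of PAPP-A, read 31.4 on the transgenic array, against 18.6 on the wild-type array (log2 ratio 0.76). Mmp2, a matrix metalloproteinase, read 39.3 on the transgenic array, against 62.3 on the wild-type array (log2 ratio -0.67, and -0.65 at its other probe set). Pappa2, which cleaves IGFBP5, read 22.5 on the transgenic array and was not detected on the wild-type array, so that it was at least 2.14-fold higher.

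Below the receptors, all 16 measured genes of phosphatidylinositol 3-kinase and Akt signalling were detected on both arrays. By their brightest probe sets, the log2 ratios lay between -0.19 and 0.42, with a median of 0.09, and 12 were above 0. Dimmer probe sets of these genes spread wider in both directions. Pik3ca, a catalytic subunit, had 0.31 at its brightest probe set and from -1.05 to 0.38 at its others. Pdpk1 had 0.07 at its brightest and 0.93 at its other. The number above 0 depends on the scaling, which moved the median over all probe sets between -0.11 and 0.21. Gsk3b, a kinase that Akt inhibits, read 390 on the transgenic array, against 292 on the wild-type array (log2 ratio 0.42, from 0.18 to 1.24 at its other probe sets). Foxo3, a transcription factor that Akt inhibits, read 1144 on the transgenic array, against 869 on the wild-type array (log2 ratio 0.40, but -0.05 and -0.03 at its other probe sets).

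Of 10 genes known to be induced by FOXO factors, 3 had ratios above 1 and 7 under 1, with a median log2 ratio of -0.06. Klf15, a Krüppel-like transcription factor, read 56.6 on the transgenic array, against 37.3 on the wild-type array (log2 ratio 0.60). Txnip, a thioredoxin-binding protein, read 367 on the transgenic array, against 482 on the wild-type array (log2 ratio -0.39). The 10 genes of mTOR signalling, among them Rictor of mTOR complex 2, had a median of -0.01. The farthest out was the ribosomal protein gene Rps6, which read 194 on the transgenic array, against 371 on the wild-type array (log2 ratio -0.94).

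**Figure D4:**
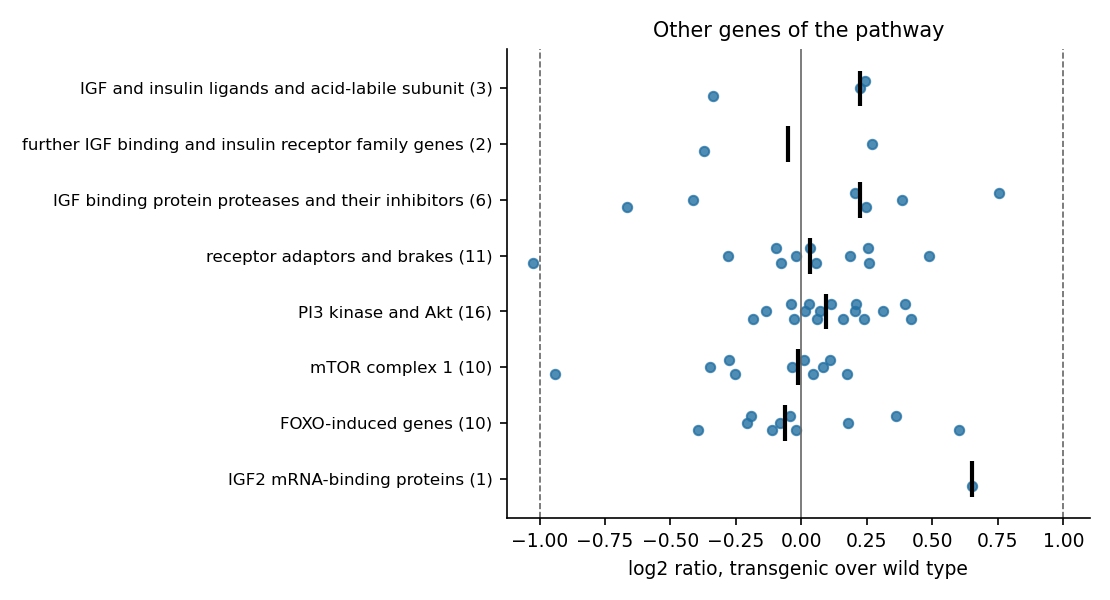
Log2 ratios of transgenic over wild-type signal of the 59 further pathway genes detected on both arrays, 1 point per gene by its brightest probe set, in 8 lists with the number of genes in brackets; black bars are list medians and dashed lines mark 2-fold. Points lie between -1.02 for Sh2b2 and 0.76 for Stc1, and list medians of 10 or more genes lie between -0.06 and 0.09.

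Several facts of the pools ran beside these ratios. Hair shaft and inner root sheath markers were detected on both arrays in all 7 and all 8 measured genes, with median log2 ratios of 0.03 and 0.00. Among the hair shaft markers Krt84, a hair keratin, was called lower, at 29.4 on the transgenic array, against 619 on the wild-type array (log2 ratio -4.40), and the other 6 lay between -0.06 and 0.27. Markers of dermal fibroblasts, cells that also make IGF binding proteins, summed to 3030 on the transgenic array, against 2205 on the wild-type array. All 7 measured genes were detected, 5 had ratios above 1, none was called either way, and the median log2 ratio was 0.24. The higher fibroblast sum was mostly Dcn (1590 against 985), and Lum (-0.33) and Pdgfra (-0.15) had log2 ratios under 0. The summed signal of 8 dermal papilla markers was 307 on the transgenic array, against 281 on the wild-type array, with 6 of 7 ratios above 1, Rspo3 called higher (log2 ratio 1.25) and Sox2 detected on neither. For 6 endothelial markers it was 102 on the transgenic array, against 86.9 on the wild-type array, with Cdh5 called higher (log2 ratio 1.63) and Pecam1 detected on neither. The higher endothelial sum rested on Cdh5: of the 3 markers detected on both arrays, Tek (-0.17) and Tie1 (-0.85) had log2 ratios under 0, and the median was -0.17. Sums were also higher in transgenic follicles for 6 immune markers (137 against 57.3 in wild type) and 6 epidermal markers (429 against 258), with 1 marker of each list called higher, among the epidermal ones Krt77 (log2 ratio 1.94). Only 2 of the immune and 3 of the epidermal markers were detected on both arrays, and 2 and 3 were detected on neither. The immune marker H2-Aa read 42.4 on the transgenic array and was not detected on the wild-type array, at 7.60. It was at least 4.04-fold higher. Sums were lower in transgenic follicles for 8 outer root sheath and basal markers (11994 against 14284 in wild type), where 7 of 8 ratios were under 1, 0 were called and the median log2 ratio was -0.31. They were also lower for 4 Schwann cell markers (141 against 202), with S100b called lower and a median of -0.77, for 6 muscle markers (1092 against 1296), although Acta1 was at least 3.55-fold higher, and for 6 melanocyte markers (12741 against 13794). The lower muscle sum was mostly Acta2 (752 against 933), with 3 of the 6 markers detected on both arrays and 2 on neither. The lower melanocyte sum was mostly Mlana (1368 against 2160). Of the melanocyte ratios 3 were above 1 and 3 under 1, with a median log2 ratio of -0.06. The lower sum of 4 adipocyte markers (5585 against 7660) was mostly Fabp4 (5108 against 7211). Adipoq was called lower (log2 ratio -1.09), and the median was -0.05. Lpl had a log2 ratio of 0.40 at its brightest probe set, but -0.68 at its other. Cidec had 0.58, from signals near the floor (17.8 against 11.9). The part of these cell types in the ratio of Igfbp5 was not tested.

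The pools also differed in sex-linked genes, since Xist, an RNA of the inactive X chromosome, was 3.25-fold higher at its brightest probe set in transgenic follicles and the Y-linked gene Eif2s3y was at least 18.2-fold lower. Sex and genotype cannot be told apart here. Fgfr2 itself read 368 on the transgenic array, against 197 on the wild-type array, at its brighter probe set, and 206 against 147 at the other detected one. The sources used here do not say whether these probe sets lie within the transgene. The split of higher and lower probe sets over the whole array moved with the scaling: 576 were higher and 381 lower, against 363 and 587 with equal medians, 443 and 491 with quantile normalization, 426 and 504 with loess, and 1032 and 222 with equal spiked controls. The median log2 ratio of all probe sets moved to -0.11 with equal medians and to 0.21 with equal spiked controls, and member ratios within about that distance of 0 have no settled sign.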

How the data were processed

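Per the hybridisation records, the arrays were of the Affymetrix Mouse430_2 design. The authors deposited 1 linear intensity per probe set. The values show a 2% trimmed mean of 100.001 on each array; the summary algorithm is not given in the sources used here. Of 45101 probe sets, 64 controls were left out. Both arrays were rescaled to the same 2% trimmed mean, which hides any change common to the whole array, and values under the 40th percentile (10.5) were set to it. Ratios are transgenic over wild type. A probe set was called where both arrays exceeded this floor and differed 2-fold; with 1 signal under it, the ratio is a bound. All 10 gene names matched RefSeq (GRCm38.p6) by identifier. Members and lists were chosen with earlier results of these data known. Named were all member probe sets, the 3 genes with the largest log2 ratio of each list (some are left out for space) and genes 2-fold from the floor on 1 array. The steps were tested on simulated data with less noise than the spread between probe sets. Only probe sets well above the floor were changed there, so calls near the floor were not tested. Alternatives were 5 scalings, 3 floors, a pseudocount, 2 probe set rules and thresholds of 1.5-fold and 3-fold. Python 3.11.15, numpy 2.4.6, scipy 1.17.1 and statsmodels 0.14.6 were used.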

Additional observations from a re-analysis of the deposited data

Results flagged for a closer look

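Probe set 1440979_at carries the symbols of both Igf2r and Airn, an antisense RNA that overlaps Igf2r, and was therefore kept out of the comparison. It read 12.8 on the transgenic array, above the floor of 10.5, against 1.80 on the wild-type array, and is listed for that reason. The brightest control probe set without a target in the mouse read 15.8 on the transgenic array.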

How the results depend on the processing

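The 2 member probe sets at least 2-fold higher became 1 with equal medians, with a floor of 50, with only probe sets that end in plain _at, with 1 probe set per gene and at 3-fold. That remaining one was Igfbp5 1452114_s_at, except with plain _at endings, where it was Igf2r 1424111_at. They became 3, Irs2 being added, with the floor at the 20th percentile, which also gave 1 at least 2-fold lower, Igf1r 1452108_at, against 0. With the pseudocount the 2 were Igfbp5 and Irs2. The median log2 ratio of the members lay between -0.11 with equal medians and 0.23 with equal spiked controls. Of 187 values of single probe sets under the alternatives, 185 moved by less than the SD between probe sets of like brightness. The exceptions were Igf1r 1452108_at with the floor at the 20th percentile (-1.89) and Irs2 with the floor at the 60th (0.18). Small moves were largely built in, so this count says little about how firm the ratios are. Scaling each array by 1 factor shifts all ratios of detected probe sets alike. A floor leaves unchanged any ratio whose signals both exceed it. Where a floor exceeded both signals there was no value, and such cases are not among the 187. Over all probe sets, the 576 higher and 381 lower ones became 363 and 587 with equal medians, 1032 and 222 with equal spiked controls, 2489 and 1779 with the floor at the 20th percentile, 137 and 112 at the 60th, 53 and 56 with a floor of 50, 1239 and 878 with the pseudocount, 185 and 183 with 1 probe set per gene, 2327 and 1638 at 1.5-fold, and 65 and 72 at 3-fold. Signals near the floor limit Irs2, the dim probe set of Igfbp5 and the dim ones of Igf1r. No paired analysis was possible because each group has 1 array.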
